A study of Mus musculus with 6 samples.

Results

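The mRNAs of the proteasome were read in the spleens of 6 mice. The genes were taken by symbol, as those named Psma, Psmb, Psmc, Psmd, Psme, Psmf or Psmg and a digit in the array annotation, and each was represented by its brightest single-gene probe set, by the log2 signal averaged over all arrays. This rule gave 49 genes of 18193 with a single-gene probe set on the array. All mice were male C57BL/6J and 8 weeks old at the start. For 15 weeks, 3 control mice received a special diet with 4% cellulose and 3 garlic-fed mice the same diet with 4% lyophilized raw garlic powder, and the spleen RNA of each mouse was hybridized to 1 Affymetrix array. The values are linear MAS5 signals, each a summary of the brightness of the oligonucleotides that match an mRNA and together form a probe set. Differences between the diets are given on the log2 scale as garlic minus control, with the standard error (SE) of the fit. Whole spleens were used, so that fewer cells of a type and less RNA per cell cannot be told apart.

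The proteasome is the protease that degrades ubiquitin-tagged proteins. Its core particle is a barrel of α rings, which gate the entry, around β rings, which hold the proteolytic sites. A regulatory particle docks on the core, with a base of ATPases that unfold the substrate and a lid that removes the ubiquitin chain. In immune cells and under interferon-γ, the catalytic subunits Psmb5, Psmb6 and Psmb7 are replaced by Psmb8, Psmb9 and Psmb10 in newly made cores. The resulting immunoproteasome favors peptides that fit MHC class I molecules, and the Tap1 and Tap2 transporter carries these peptides into the endoplasmic reticulum. Spleen is rich in lymphocytes, which use this form, and red cell precursors use the proteasome to remodel their contents as they mature.

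Of the 49 genes, 47 encode subunits, activators, an inhibitor or assembly chaperones of the proteasome. The other two, Psmc3ip and Psme3ip1, match the symbol rule without being subunits. Psmc3ip encodes a cofactor of homologous recombination and Psme3ip1 a binding partner of an activator, and they were kept apart from the classes below. One gene, Psmb11 of the thymic form of the core, was too dim to be tested, with signals of 7.5, 9.6 and 27.9 among controls against 9.4, 37.8 and 5.8 with garlic, and 48 were tested. The activator gene Psme2 had no single-gene probe set and was not analysed here. The probe sets of proteasome genes were bright ones, although brightness depends on the probes as well as on the mRNA and sets no order of mRNA levels between genes. Of the 48 tested, 27 lay in the brightest 10% of all probe sets tested and 41 in the brightest 25%. The exception at the dim end was Psma8, an α subunit of the testis, with a signal of 79.7 ± 24.8 (SD, n = 3) among controls and 83.4 ± 5.20 (SD, n = 3) in garlic-fed mice. The median SD between replicates of the tested genes was 0.12 on the log2 scale, compared with 0.20 for all probe sets tested and 0.11 for the brightest 10% of them.

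The inducible subunit Psmb9 showed the lowest log2 difference of all proteasome genes, and its start site faces that of Tap1, the transporter gene whose signal was also lower in the garlic-fed mice. Neither gene passed the adjusted threshold used below, and whether the stretch between the start sites bears on these signals was not tested. The promoter window of Psmb9, 300 bases around the start site in RefSeq (build GRCm38.p6), is shown because of the facing start sites. It lies at chr17:34187281-34187580 on the minus strand and shares 275 bases with the window of Tap1 on the plus strand at chr17:34187306-34187605. The capitals mark the 225 bases between the start sites of the 2 genes, of which 61.3% are G or C. The window of Psmb8, at chr17:34197945-34198244 on the plus strand, is shown beside that of its constitutive counterpart Psmb5, at chr14:54617946-54618245 on the minus strand, in which the capitals mark a match to the core of the antioxidant response element.
Psmb9: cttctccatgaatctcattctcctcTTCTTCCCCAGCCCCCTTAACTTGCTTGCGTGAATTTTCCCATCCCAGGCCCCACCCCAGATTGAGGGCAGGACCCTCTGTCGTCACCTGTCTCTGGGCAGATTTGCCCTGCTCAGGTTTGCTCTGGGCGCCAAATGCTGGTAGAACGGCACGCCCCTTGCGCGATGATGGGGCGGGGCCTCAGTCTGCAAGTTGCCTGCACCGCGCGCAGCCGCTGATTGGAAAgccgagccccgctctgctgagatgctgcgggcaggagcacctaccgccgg
Psmb8: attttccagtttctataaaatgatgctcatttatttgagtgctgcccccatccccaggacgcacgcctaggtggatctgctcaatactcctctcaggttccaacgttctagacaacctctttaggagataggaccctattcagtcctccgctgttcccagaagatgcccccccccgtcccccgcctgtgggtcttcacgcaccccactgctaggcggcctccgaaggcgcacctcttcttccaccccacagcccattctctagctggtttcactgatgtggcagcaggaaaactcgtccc
Psmb5: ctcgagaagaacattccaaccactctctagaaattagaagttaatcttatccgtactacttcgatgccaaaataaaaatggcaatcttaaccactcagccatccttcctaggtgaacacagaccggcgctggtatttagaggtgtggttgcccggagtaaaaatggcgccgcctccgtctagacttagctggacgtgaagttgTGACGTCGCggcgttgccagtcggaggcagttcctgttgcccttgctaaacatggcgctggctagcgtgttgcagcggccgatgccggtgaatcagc
Motifs were searched on both strands of these windows. The first was the antioxidant response element core TGACNNNGC, the letters bound by the transcription factors Nrf1 and Nrf2, of which Nrf1 is known to drive proteasome genes. It matched in 6 of the 41 proteasome genes with a window in the table, which were Psmb5, Psmb6, Psmc6, Psmd12, Psmd9 and Psme4, a share of 14.6%, and in 14% of all 27025 genes. The second was the interferon response element, searched as a pair of GAAA on the same strand with NN between them, which matched in 5 of the 41, Psmb3, Psmd4, Psmd9, Psme1 and Psmg4, or 12.2%, and in 3.99% of all genes. In the Psmb8 and Psmb9 windows neither set of letters was found. Other forms of these elements and bases outside the windows were not searched. Neither a match nor its absence says anything about binding.

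No proteasome gene passed the adjusted threshold. With limma over all 27022 probe sets and an adjusted p under 0.05, 0 of the 48 were called, beside 0.237% of all probe sets tested, and the one-way analysis of variance named in the methods, adjusted in the same way, called 0 of all 27022 probe sets and so none of these genes either. At an unadjusted p under 0.05, none was higher, beside 5.58% of all, and 2 were lower in the garlic-fed mice, or 4.17% beside 5.44% of all. Both were inducible subunits of the immunoproteasome, Psmb9 and Psmb8. The median log2 difference of the 48 genes was 0.011, and that of all probe sets tested was -0.033. Of the 48, 26 had a log2 difference above 0, or 54.2% beside 43.5% of all. In 5 genes, Psmc3, Psmf1, Psmd5, Psmd9 and Psmg3, the lowest garlic signal exceeded the highest control signal, 10.4% beside 7.52% of all, and in 2, Psmb8 and Psmb9, the order was the opposite, 4.17% beside 9.29%. When each array was centred on its median, which moved the median of all probe sets to 0.045, the split turned, with 6 proteasome genes higher and 0 lower by that threshold. The split of all probe sets turned the same way, to 8.32% higher and 2.63% lower.

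For most genes the intervals bound the size of any difference on the brightest probe set, but not on every probe set of the gene. Dimmer probe sets of Psmd11 and Psmd13 had log2 differences of -0.63 (95% interval -1.35 to 0.081) and -0.67 (-1.39 to 0.053). On the brightest probe set, the 95% interval of the log2 difference lay within 1.5-fold in either direction for 43 of the 48. The 5 with a wider interval were Psma8, Psmd3, Psme3, Psmf1 and Psmd9.

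**Figure D1:**
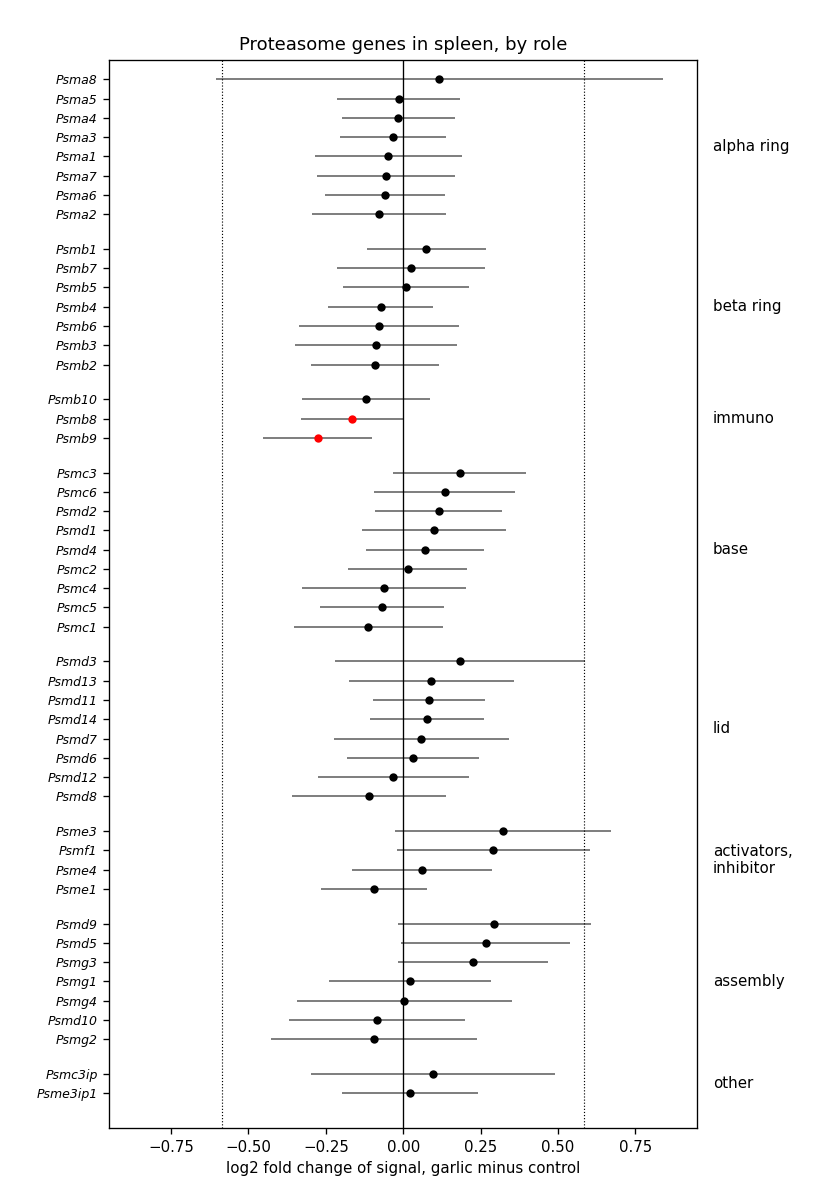
Log2 difference of signal, garlic minus control, of the 48 tested genes (points) with 95% intervals from limma (lines), grouped by role. Red points have an unadjusted p under 0.05 (Psmb8 and Psmb9), and the dotted lines mark 1.5-fold. Most intervals span 0, and 43 of 48 lie between the dotted lines.

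In the α ring, which gates the core, 7 of 8 genes had a log2 difference below 0, all of them small. They lay between -0.078 for Psma2 and -0.015 for Psma5, while Psma8 was at 0.12 (SE 0.32). Psma3, the brightest α subunit, had signals of 8592, 8908 and 8256 among controls against 8118, 8106 and 8961 with garlic. The groups overlapped, with garlic-fed mouse 3 above all others, and the log2 difference was -0.033 (SE 0.076, adjusted p = 0.916, limma). Psma2 had signals of 6801, 7367 and 7426 among controls against 6505, 6241 and 7788 with garlic, again with the highest value in garlic-fed mouse 3. The median of the class was -0.041, and it was 0.037 with each array centred on its median.

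The values of the constitutive β ring were also small. Its 7 genes had log2 differences from -0.092 for Psmb2 to 0.075 for Psmb1, with a median of -0.073, and 0.0051 with arrays centred on their median. Psmb4, a structural β subunit and the brightest of the class, had signals of 7939, 8596 and 8584 among controls against 7679, 7821 and 8382 with garlic, which overlap (adjusted p = 0.790). Psmb5, which carries the chymotrypsin-like site, had a log2 difference of 0.0091 (SE 0.090). Psmb6 of the caspase-like site was at -0.078 (SE 0.11), and Psmb7 of the trypsin-like site at 0.025 (SE 0.11).

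In the immunoproteasome, all 3 tested genes had lower mean signals in the garlic-fed mice. Of all probe sets tested, 43.5% had a log2 difference above 0, and 9.29% had all garlic-fed mice below all control mice. Psmb9, the inducible counterpart of Psmb6, had signals of 5794, 6360 and 6143 among controls against 4836, 5187 and 5076 with garlic. The groups did not overlap, and the spread within each group was smaller than the gap between their means. The mean was 6099 ± 286 (SD, n = 3) on the control diet and 5033 ± 179 (SD, n = 3) in garlic-fed mice, 1.21-fold lower with garlic (log2 difference -0.28, SE 0.077, 95% interval -0.45 to -0.10, adjusted p = 0.205, limma). Psmb8, the counterpart of Psmb5, had signals of 7152, 7553 and 7373 among controls against 6290, 6574 and 6848 with garlic. These groups did not overlap either, and the log2 difference was -0.16 (SE 0.073, 95% interval -0.33 to -0.00053, adjusted p = 0.453). Psmb10, the counterpart of Psmb7, had signals of 2909, 3243 and 3129 among controls against 3009, 2887 and 2646 with garlic. Here the groups overlapped, and the log2 difference was -0.12 (SE 0.091, adjusted p = 0.693). The class had a median of -0.16, and of -0.086 with arrays centred on their median. A second, much dimmer probe set of Psmb8 had a log2 difference of -0.30 (adjusted p = 0.634), with groups that overlap. Psmb8 was past the unadjusted threshold without garlic-fed mouse 3 but not when any other single mouse was left out. It also missed that threshold with arrays centred on their median, a higher floor, a variance prior without trend, the replicate block, its probe sets averaged, or control mouse 1 and garlic-fed mouse 2 both left out. Psmb9 was below 0 in every alternative of processing tried, from -0.34 to -0.20, with an adjusted p between 0.154 and 0.650, and past the unadjusted threshold in each of them except with arrays centred on their median.

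Each inducible subunit was then set against the constitutive one it replaces, as the log2 ratio of their signals within an array. The ratio itself compares different probes and carries no meaning as a level, but its difference between groups does not depend on a scaling factor of the arrays. The Psmb8/Psmb5 log2 ratio was 1.04, 0.98 and 0.96 among controls against 0.87, 0.72 and 0.87 with garlic. All garlic-fed mice lay below all control mice, by -0.17 in the means. For Psmb9/Psmb6 the log2 ratio was 1.24, 1.01 and 1.01 among controls against 0.94, 0.86 and 0.86 with garlic, a difference of -0.20. The ratio of Psmb10/Psmb7 was -1.31, -1.37 and -1.40 among controls against -1.30, -1.39 and -1.83 with garlic, and these groups overlapped. The exact two-sided permutation test gave p = 0.1 for the first and second pair, the smallest p that 3 mice against 3 can give, and p = 0.7 for the third, and p = 0.15, 0.15 and 0.7 after Benjamini-Hochberg adjustment over the 3 pairs. Without control mouse 1, in which Psmb6 had its lowest signal, the difference of Psmb9/Psmb6 was -0.12. The difference of Psmb10/Psmb7 was -0.15, and it was 0.015 without garlic-fed mouse 3.

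**Figure D2:**
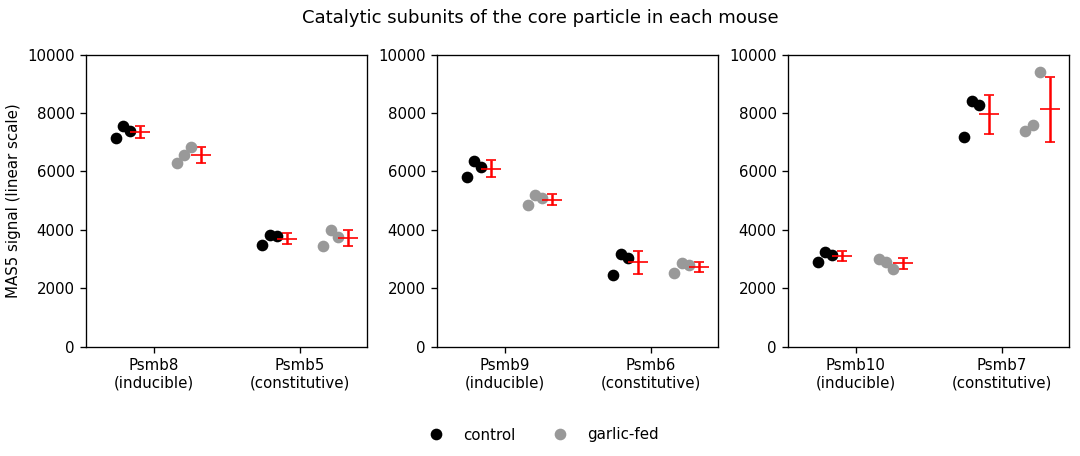
MAS5 signal (linear scale) of the inducible subunits Psmb8, Psmb9 and Psmb10 and of the constitutive subunits they replace in each control mouse (black) and garlic-fed mouse (gray), with the mean and SD of each group (red, n = 3). The garlic-fed mice lie below the control mice for Psmb8 (6290 to 6848 against 7152 to 7553) and Psmb9 (4836 to 5187 against 5794 to 6360) and overlap with them for the other 4 genes; signals of different genes are not comparable.

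The genes of class I antigen presentation, which work with the immunoproteasome, had lower signals of the peptide transporter and values near 0 for the presenting molecules, a contrast that was not itself tested. Of 11 genes tested, 3 had an unadjusted p under 0.05, all of them lower with garlic, beside 5.44% of all probe sets, and none passed the adjusted threshold. Without control mouse 2, 1 of them was past that threshold for unadjusted p. Tap1 had signals of 3335, 3913 and 3186 among controls against 2690, 2852 and 2316 with garlic. All garlic-fed mice lay below all control mice (log2 difference -0.41, SE 0.11, adjusted p = 0.198, limma), an order found in 9.29% of all probe sets tested. With the mean of its 4 probe sets in place of the brightest one, the difference of Tap1 was -0.16. Tap2, the other chain of the transporter, had signals of 2326, 2190 and 2128 among controls against 1835, 2057 and 1733 with garlic, without overlap (log2 difference -0.24, SE 0.099, adjusted p = 0.408). Nlrc5, which encodes a transactivator of MHC class I genes, had signals of 2200, 2355 and 2212 among controls against 1748, 1992 and 1813 with garlic, also without overlap (log2 difference -0.29, SE 0.094, adjusted p = 0.280). By contrast, the presenting molecules were close to 0, with log2 differences of 0.019 for the heavy chain gene H2-K1, -0.062 for H2-D1 and -0.026 for B2m, the gene of their light chain. These were read on the brightest of 4, 9 and 2 probe sets, each of a kind that can match several transcripts. The probe set of Tap2 is of this kind too. The interferon response factor Irf1 had a log2 difference of -0.11 (SE 0.15), with groups that overlap. The median of the 11 genes was -0.062. With arrays centred on their median 1 of them, in place of 3, was lower at an unadjusted p under 0.05.

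**Figure D3:**
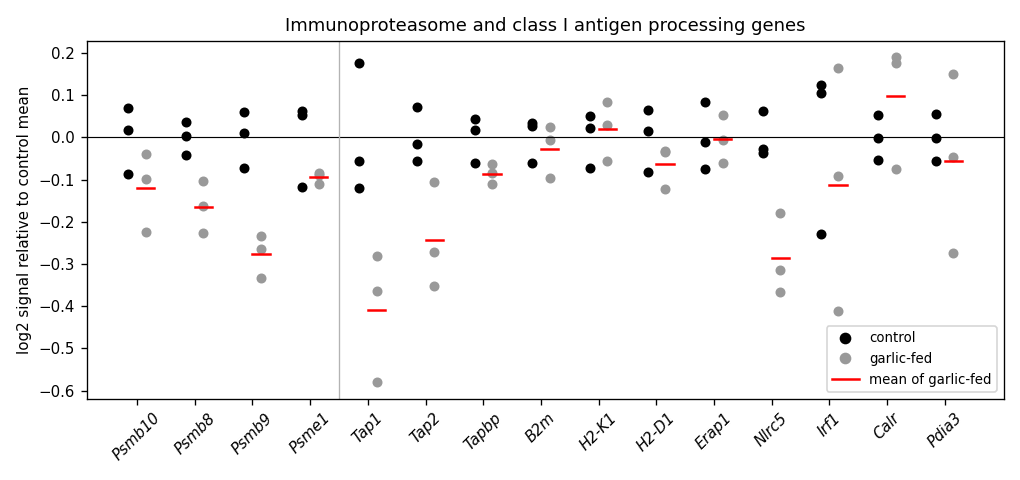
Log2 signal of Psmb8, Psmb9, Psmb10 and Psme1 (left of the line) and of 11 genes of class I antigen processing, 1 point per mouse, as the distance from the control mean (n = 3 per diet), with the mean of the garlic-fed mice in red. Psmb8, Psmb9, Tap1, Tap2 and Nlrc5 have all garlic-fed mice below all control mice, and so does Tapbp, with a log2 difference of -0.086, while B2m and H2-K1 lie close to 0. The same order was found in 9.29% of all probe sets tested.

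Markers of the cell types of the spleen were read on the same arrays. At an unadjusted p under 0.05, 5.58% of all probe sets were higher and 5.44% lower. By that threshold 9 of 10 tested markers of red cell precursors were higher, 1 of them past the adjusted threshold. Their summed signal was 36679 to 47127 among controls against 57459 to 82800 with garlic. No gene of the other marker lists passed the adjusted threshold. For B cells 2 of 6 markers were lower, with sums of 46365 to 52203 and 42315 to 48154, and for T cells 0 of 7, with sums of 15404 to 16102 and 13491 to 15461. Of 8 macrophage markers 2 were higher, and of 8 neutrophil markers 5. The sums were 56671 to 63572 and 58360 to 69316 for macrophages, and 15039 to 18791 and 18010 to 24387 for neutrophils. Genes of tissues next to the spleen were detected as well. Of 8 pancreatic genes all were lower at an unadjusted p under 0.05. They summed to 13983 to 104142 among controls against 2000.4 to 26388 with garlic. Of 4 fat tissue genes tested 1 was higher, and the sums of the 5 measured were 2433 to 3735 and 2247 to 9050. None of the measured markers had a signal of 0. The part of these cell types in the values of the proteasome genes was not tested. With control mouse 1 and garlic-fed mouse 2, which had the most pancreatic signal of their groups, left out, the log2 difference of Psmb9 was -0.34 and that of Psmb8 -0.19. The pancreatic sums that remained were 13983 and 50445 among controls against 2000.4 and 2166 with garlic. These no longer overlapped, so this omission cannot tell pancreatic signal and diet apart.

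The regulatory base had 6 of 9 genes above 0 and a median of 0.071, from -0.11 for Psmc1 to 0.18 for Psmc3. Psmc3, one of the ATPases, had signals of 3233, 3393 and 3346 among controls against 3570, 4245 and 3537 with garlic. All garlic-fed mice lay above all control mice (log2 difference 0.18, SE 0.094, adjusted p = 0.526, limma). Psmc2, the brightest base gene, was at 0.014 (SE 0.085), and Psmc1 at -0.11 (SE 0.11), both with overlapping groups. Psmd1 and Psmd2, the scaffold proteins of the base, had log2 differences of 0.098 and 0.11, and Psmd4, a ubiquitin receptor, one of 0.071.

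The lid was similar, with 6 of 8 genes above 0 and a median of 0.067. Psmd14, the enzyme of the lid that cuts off ubiquitin chains, had signals of 4692, 4206 and 4289 among controls against 4507, 4802 and 4579 with garlic, with overlap (log2 difference 0.076, SE 0.081). Psmd11, the brightest lid gene, was at 0.085 (SE 0.080), and its 5 tested probe sets ranged from -0.63 to 0.23. Psmd3 had the highest value of the lid, 0.18 (SE 0.18), and Psmd8 the lowest, -0.11 (SE 0.11). The value of Psmd3 ranged from 0.055 without control mouse 3 to 0.38 without control mouse 1, and it was past the unadjusted threshold in the latter case. With all probe sets of a gene averaged in place of the brightest one, the medians were -0.019 for the base and -0.041 for the lid, so that the sign of these classes rests on the choice of probe set.

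**Figure D4:**
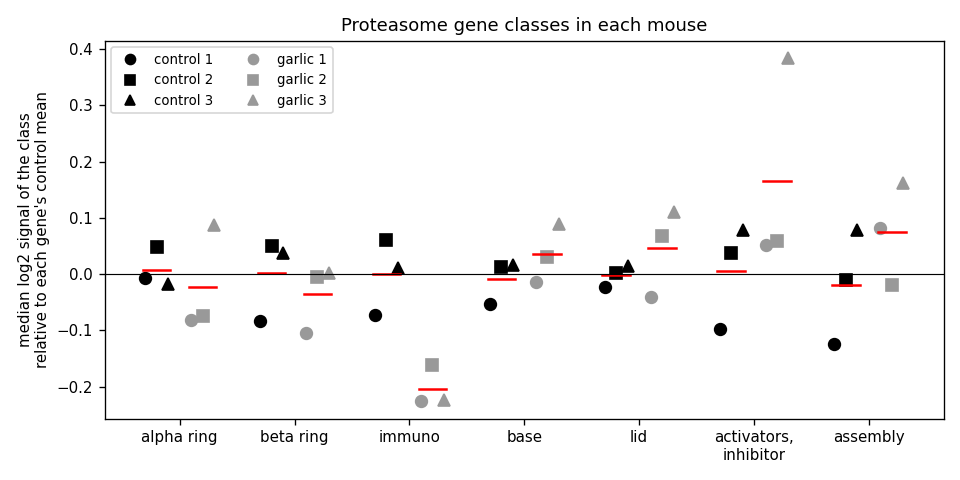
Median log2 signal of each class of proteasome genes in each mouse, relative to each gene's mean log2 signal in the control mice, with red bars for the group means (black symbols, control; gray symbols, garlic-fed). The immunoproteasome, with 3 tested genes, is the class in which all garlic-fed mice (-0.23, -0.16 and -0.22) lie below all control mice (-0.073, 0.062 and 0.011); garlic-fed mouse 3 stands highest in the activators and inhibitor (0.38).

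Among the activators, which open the core without ATP, the values had both signs. Psme1, a subunit of the interferon-inducible activator PA28 with the brightest probe set of all proteasome genes, had signals of 8258, 9285 and 9355 among controls against 8443, 8287 and 8422 with garlic. The groups overlapped, and the log2 difference was -0.095 (SE 0.076, adjusted p = 0.713, limma). Psme3, the nuclear activator, had the highest log2 difference of all proteasome genes, 0.32 (SE 0.16, adjusted p = 0.489). Its signals were 1436, 1459 and 1596 among controls against 1683, 1582 and 2451 with garlic. Garlic-fed mouse 3 stood far above the others, and without it the log2 difference was 0.13. A second probe set of Psme3 had one of 0.38 (adjusted p = 0.455), with all garlic-fed mice above all control mice. Psme4, which encodes the activator PA200, was at 0.060 (SE 0.10), and its 6 tested probe sets ranged from -0.42 to 0.24. Psmf1, the gene of the inhibitor PI31, had signals of 1041, 1224 and 1266 among controls against 1349, 1270 and 1727 with garlic. The groups did not overlap, though control mouse 3 and garlic-fed mouse 2 almost met, with garlic-fed mouse 3 again highest (log2 difference 0.29, SE 0.14, adjusted p = 0.481, and 0.16 without that mouse), and its 4 probe sets lay between 0.21 and 0.29.

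The assembly chaperones, which build the rings and the base and are not part of the finished particle, had a median of 0.021 over 7 genes. In 3 of the 7 all garlic-fed mice lay above all control mice, beside 7.52% of all probe sets tested. Psmd9, a chaperone of the base, had signals of 599.9, 695.4 and 700.9 among controls against 786.5, 952.1 and 719.0 with garlic (log2 difference 0.29, SE 0.14, adjusted p = 0.481). Its 2 dimmer probe sets were both at -0.31, so that the probe sets of Psmd9 disagree in sign. Psmd5 and Psmg3 were chosen after their values were seen. Psmd5, another chaperone of the base, had signals of 1247, 1310 and 1405 among controls against 1537, 1405 and 1849 with garlic. The groups touched, with control mouse 3 at 1404.8 and garlic-fed mouse 2 at 1405.4 (log2 difference 0.27, SE 0.12, adjusted p = 0.463). Psmg3, a chaperone of the α ring, had signals of 711.4, 698.1 and 752.9 among controls against 846.8, 839.7 and 839.2 with garlic. The groups did not overlap (log2 difference 0.22, SE 0.11, adjusted p = 0.485), while a dimmer probe set of Psmg3 was at -0.15. Psmg2, the brightest of the class, was at -0.094 (SE 0.15). Over all classes, 24 genes had over 1 probe set that could be tested, and in 13 of these the probe sets had both signs.

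Many of these genes had the same mice at the ends of their range. Of the 48, 30 had their highest garlic-fed signal in garlic-fed mouse 3, and 30 their lowest control signal in control mouse 1. The same counts were not made over all probe sets, so nothing particular to these genes can be read from them. The median of all 48, relative to the control mean, was -0.061, 0.042 and 0.021 among controls against -0.073, 0.029 and 0.089 with garlic, so that the groups overlapped. Psmb8 was among the genes with their highest garlic-fed signal in mouse 3, and Psmb9 and Psmb10 were not.

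Genes that work with the proteasome but carry other symbols gave no adjusted call. Of 18 tested partners, among them shuttle factors, deubiquitinases and the unfoldase Vcp, 5 had an unadjusted p under 0.05, 4 higher, beside 5.58% of all probe sets, and 1 lower, beside 5.44%, with a median of 0.051. The higher count was 1 without control mouse 1 or garlic-fed mouse 3 and 2 without control mouse 2, control mouse 3 or garlic-fed mouse 2. The lower count was 3 without garlic-fed mouse 3 and 0 without control mouse 1 or garlic-fed mouse 2. The ubiquitin shuttles Ubqln1 and Ubqln2 lay on opposite sides. Ubqln1 had signals of 4121, 4359 and 4221 among controls against 4857, 5565 and 5198 with garlic, without overlap (log2 difference 0.30, SE 0.083, adjusted p = 0.204, limma). Ubqln2 had signals of 3581, 3201 and 3116 among controls against 2824, 2396 and 2918 with garlic, lower without overlap (log2 difference -0.28, SE 0.10, adjusted p = 0.341). Usp14, a deubiquitinase of the regulatory particle, was at 0.37 (adjusted p = 0.377). Nploc4, a cofactor of Vcp, was at 0.29 (adjusted p = 0.427), and like Usp14 it had no overlap between the groups. Zfand2a, a heat-shock-inducible partner, was at 0.36 (adjusted p = 0.422), with overlap. Pomp, the chaperone that completes the core, was at -0.14 and Vcp at 0.042. Uba6, an enzyme that activates ubiquitin, was at 0.21 (SE 0.12).

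In the route that controls proteasome gene transcription, 3 of 10 tested genes had an unadjusted p under 0.05, all of them higher with garlic, beside 5.58% of all probe sets, with a median of 0.090. By the methods' analysis of variance 1 gene was. Nfe2l1, the gene of Nrf1 itself, had signals of 1274, 1198 and 1104 among controls against 1459, 1411 and 1030 with garlic, which overlap (log2 difference 0.11, SE 0.14, adjusted p = 0.843). Its small Maf partners Mafk and Mafg had higher signals with garlic, and they also pair with the erythroid factor Nfe2. Mafk had signals of 725.9, 754.1 and 920.2 among controls against 1029, 1129 and 1139 with garlic, without overlap (log2 difference 0.46, SE 0.12, adjusted p = 0.188). Mafg had signals of 351.6, 437.1 and 658.0 among controls against 705.4, 731.0 and 711.0 with garlic (log2 difference 0.62, SE 0.20, adjusted p = 0.280), and control mouse 3 lay close to the garlic-fed mice. Btrc, which encodes a ubiquitin ligase subunit that acts on Nrf1, was at 0.44 (SE 0.16, adjusted p = 0.345). The sum of the erythroid markers, given above, was highest in garlic-fed mouse 3, and the part of red cell precursors in these values was not tested.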

How the data were processed

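Spleen RNA of 6 mice, 3 per diet, was measured on 1 Affymetrix array per mouse. The deposited intensity of each probe set is a linear MAS5 signal made by the authors, per the submitters' processing notes. The MAS5 version and scaling are not given in the sources used here. The mean of each array, trimmed by 2% at each end, is 500.0, as read from the values. Of 45101 probe sets, 64 control probe sets were left out. Names came from the array annotation, in which 34945 probe sets carry 1 gene name, 932 several and 9160 none, and 34741 matched the mouse reference by gene ID. A floor was set at the 20th percentile of all signals, 23.5, before log2 was taken. Probe sets whose log2 mean over the arrays exceeded 6.08, the 40th percentile, entered the test, 27022 in all. The fit used limma 3.58.1 in R 4.3.3 with lmFit and eBayes (trend = TRUE) and Benjamini-Hochberg adjustment over these probe sets, with garlic minus control as the contrast. Arrays gave no depth, and their number limits the precision. The labels call the arrays biological replicates.

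The members, classes, gene lists and motifs were chosen with earlier results of these data known. Named are the members with an unadjusted p under 0.05, the brightest, highest and lowest of each class, all immunoproteasome genes and activators, and of each pathway list up to 5 genes with an unadjusted p under 0.05, and Nfe2l1. Other members and class I genes were added for their role, and genes named after their values were seen are marked so. Some of the listed pathway genes were not analysed here. The labels do not say whether the replicate numbers pair the mice, and the main fit did not use these numbers. The procedure was tested on simulated data, and nothing about the absence of adjusted calls here is drawn from that test. Promoter sequences are from RefSeq, and 41 of 49 genes matched by gene ID. Python 3.11.15 and matplotlib 3.10.9 were used for the plots. Alternatives are given in the closing section.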

Additional observations from a re-analysis of the deposited data

How the results depend on the processing

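No proteasome gene passed the adjusted threshold under any alternative tried. Over all probe sets 64 were called, and between 0 and 295 (replicate block) under the alternatives. At an unadjusted p under 0.05, where 0 proteasome genes were higher and 2 lower, the counts moved, and the causes were not tested. The shares of all probe sets moved too, from 3.32% to 8.32% higher and from 2.09% to 7.25% lower over the alternatives. Arrays centred on their median gave 6 higher and 0 lower, beside 8.32% and 2.63% of all probe sets. The medians were then 0.089 for all members, 0.037 for the α ring, 0.0051 for the constitutive β ring, -0.086 for the immunoproteasome, 0.15 for the base and 0.14 for the lid. Psma3 reversed to 0.045 and Psmb4 to 0.0051, Uba6 was past the threshold as 1 higher gene, and 0 partners and 1 class I gene were lower. Psmc2 was -0.0041 after quantile normalization. A floor at the 40th percentile gave 1 higher and 1 lower, and -0.049 for Psma8. Without a filter 1 was higher (Psmg3) and 2 partners were higher. Without a trend of variance 1 was lower, with 1 partner higher and 0 lower. The methods' one-way analysis of variance gave 1 higher and 2 lower, with 2 partners higher and 0 lower and 1 gene of the Nrf1 route higher. Averaging all probe sets of a gene gave 1 higher and 1 lower, 2 partners higher and 0 lower, and medians of -0.23 for the immunoproteasome, -0.019 for the base and -0.041 for the lid. It reversed Psmb1 to -0.079, Psmc2 to -0.019, Psmd11 to -0.035, Psmd9 to -0.11 and Psme4 to -0.085. Passing over probe sets that can match several transcripts gave 1 higher (Psme4), and reversed Psmc2 to -0.053, Psmd11 to -0.043 and Psmg2 to 0.016. The replicate number was also used as a block, although the labels do not tie it to a shared litter or day. Deviations of same-numbered mice correlated at 0.00064, -0.18 and 0.078. With this block 3 were higher and 1 lower, beside 6.13% and 6.04% of all probe sets. With both control mouse 1 and garlic-fed mouse 2 left out, 1 was lower, 0 partners were higher and 0 lower, and 1 gene of the Nrf1 route was higher.

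Leaving out 1 mouse at a time gave 0 to 3 proteasome genes higher and 1 to 3 lower. Of all probe sets, 4.01% to 6.74% were then higher and 3.13% to 7.25% lower. Partners ranged from 1 to 4 higher and 0 to 3 lower, the list that holds Uba6 from 0 to 1 higher and class I genes from 1 to 3 lower. Medians ranged from -0.035 to 0.053 for all members, 0.012 to 0.11 for the base, 0.014 to 0.11 for the lid, -0.073 to -0.0054 for the α ring, -0.084 to -0.0069 for the constitutive β ring, 0.055 to 0.23 for the activators and inhibitor and -0.045 to 0.17 for the assembly chaperones. The Psmb10/Psmb7 difference ranged from -0.25 to 0.015. Psmc2 ranged from -0.051 to 0.055, below 0 without control mouse 1 (-0.023) or garlic-fed mouse 3. Psma8 ranged from -0.17 (without control mouse 3) to 0.31, Psmg2 from -0.23 to 0.064 (without garlic-fed mouse 1) and Psme4 from -0.015 (without garlic-fed mouse 3) to 0.12. With 3 arrays a diet, the number of arrays limits which differences can be detected.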
